A study of Mus musculus with 45 samples.

Results

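The Hoxb cluster of the mouse is described here through its genes Hoxb1 to Hoxb9, which were taken by symbol from both tables of expression values. They are 9 of the 33924 genes listed in each table. All 9 were among the 21979 genes that varied in the ΔPG table and the 22048 that varied in the ΔG table, so each entered every comparison.

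RNA was sequenced from mouse D3 embryonic stem cells (ESCs), an established line grown without feeder cells, in 24 samples that form 8 groups of 3. In every sample at least 1 allele of the long noncoding RNA gene 5430416N02Rik was replaced, so a wild-type group is not analysed here. In ΔPG cells a PGK-puro cassette stands in place of the gene body and about 2 kb of promoter, whereas in ΔG cells GFP-IRES-Puro stands in place of the gene body alone. Heterozygous (het) and homozygous (hom) cells of each design were treated with DMSO (ES) or with retinoic acid (RA) at 2 µM. Both treatments lasted 48 h.

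The study's display of these samples names 1 clone for each genotype of each design, so that clone and genotype cannot be told apart. The 3 samples of a group are described as biological replicates, and the p-values measure the spread between such replicates of 1 clone. Each table was normalized on its own by its authors, and no value is compared between the tables with a test. The deposited numbers, called rlog values, are the output of a regularized log transformation in log2 units, which pulls genes with few reads towards their mean and therefore shrinks their differences. They hold no counts, so the depth per sample is unknown, and sample medians lay between 6.50 and 6.60 over genes whose mean was 3 or more. The mean rlog value of 5430416N02Rik itself was 4.60 in het and 2.30 in hom ΔPG cells in ES and 4.16 and 2.35 in RA, and 5.54 and 2.75 in ES and 5.58 and 2.83 in RA in ΔG cells. The labels of genotype and the level of the deleted gene therefore go the same way in all 4 pairs of groups.

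Hox genes encode homeodomain transcription factors that give cells of the embryo their position from head to tail. They lie in clusters, and the genes at the 3′ end of a cluster are switched on earlier and further towards the head than those at the 5′ end. Retinoic acid binds its nuclear receptors on direct repeats of a short core, and treatment of ESCs with it is a classical way to switch on Hox genes, with Hoxb1 among the early ones.

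On the NCBIM37 build, which was used for counting, the 9 genes run along the plus strand of chromosome 11 from 96132771 to 96229570, a span of 96.8 kb. Hoxb9 lies at the 5′ end (chr11:96132771-96137909) and Hoxb1 at the 3′ end (chr11:96227066-96229570). Some letters of this DNA are shown, since Hox proteins bind with Pbx partners and retinoic acid receptors bind direct repeats. The table of promoters holds Hoxb1, Hoxb4 and Hoxb8 (RefSeq, GRCm38.p6), and Hoxb2, Hoxb3, Hoxb5, Hoxb6, Hoxb7 and Hoxb9 have no entry in it. The motif TGATNNAT, which Pbx and Hox proteins are known to bind together, was searched on both strands of these 300-base windows. It is present in 8.85% of the 32851 RefSeq promoters. Hoxb1 (chr11:96365508-96365807) and Hoxb8 (chr11:96281655-96281954) each hold 1 match, printed in capitals on the plus strand, and Hoxb4 holds none.
Hoxb1: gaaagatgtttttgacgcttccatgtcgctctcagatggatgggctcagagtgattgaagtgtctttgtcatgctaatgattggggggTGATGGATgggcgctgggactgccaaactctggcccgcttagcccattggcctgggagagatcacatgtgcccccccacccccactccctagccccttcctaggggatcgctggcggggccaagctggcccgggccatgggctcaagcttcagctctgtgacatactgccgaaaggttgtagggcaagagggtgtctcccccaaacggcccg
Hoxb8: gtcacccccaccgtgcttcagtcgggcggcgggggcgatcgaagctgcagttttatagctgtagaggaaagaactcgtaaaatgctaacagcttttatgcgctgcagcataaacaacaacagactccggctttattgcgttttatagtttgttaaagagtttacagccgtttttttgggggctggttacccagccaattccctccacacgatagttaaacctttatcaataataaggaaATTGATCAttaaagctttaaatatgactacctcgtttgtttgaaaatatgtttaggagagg
The match in the Hoxb1 window is TGATGGAT and starts 162 bases before the gene start. That in the Hoxb8 window, ATTGATCA, is read on the other strand and starts 11 bases before the gene start. A match of letters is a description and not a site.

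Direct repeats with a spacer of 1, 2 or 5 bases were searched on both strands as well. The repeated word could be AGGTCA itself, the variant GGGTCA, the variant AGTTCA, or the variant GGTTCA. None of the 3 promoters holds one, and 0.588% of all promoters do. Over the interval with 10 kb on both sides (chr11:96122771-96239570, NCBIM37), 4 repeats were found. They are printed from their own 5′ end, with the repeated words in capitals and the spacer in lower case.
Repeat 1: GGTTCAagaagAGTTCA
Repeat 2: AGGTCAgAGGTCA
Repeat 3: AGGTCAtgAGTTCA
Repeat 4: GGTTCAtagagAGTTCA
Repeat 1 (chr11:96202550-96202566, plus strand) and repeat 2 (chr11:96206160-96206172, minus strand) lie within the gene body of Hoxb3. Repeat 3 (chr11:96220450-96220463, plus strand) lies between Hoxb2 and Hoxb1, 6.62 kb before the start of Hoxb1. Repeat 4 (chr11:96234090-96234106, plus strand) lies past the end of Hoxb1. Of 1015 windows of the same length on chromosome 11, 33.3% held at least as many repeats. This search of the interval was chosen after the values were known. With AGGTCA alone as the repeated word, 1 repeat was left, and 31.5% of windows held at least as many.

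The first question was how each gene differed between RA and ES cells of the same genotype. All 9 genes were higher in RA in each of the 4 comparisons, and in none did a sample in RA overlap with a sample in ES. A gene was called when limma gave a Benjamini-Hochberg adjusted p under 0.1 over all genes tested and the difference exceeded 0.5 on the log2 scale. The 9 of 9 genes called higher stand beside 18.0% of all genes called higher in ΔPG het, 16.5% in ΔPG hom, 17.7% in ΔG het and 17.0% in ΔG hom cells. Groups without overlap, in either direction, were found for 56.1%, 52.7%, 54.5% and 52.6% of all genes in the same order. The median difference of the 9 genes was 2.29, 2.34, 2.40 and 2.48, against 0.0074, 0.0052, 0.043 and 0.016 for all genes. In such bulk RNA, more cells that express a gene and more RNA per cell cannot be told apart. With 3 samples against 3, an exact permutation test of 1 gene could not go below p = 0.1, so the p-values given are those of limma across all genes.

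**Figure D1:**
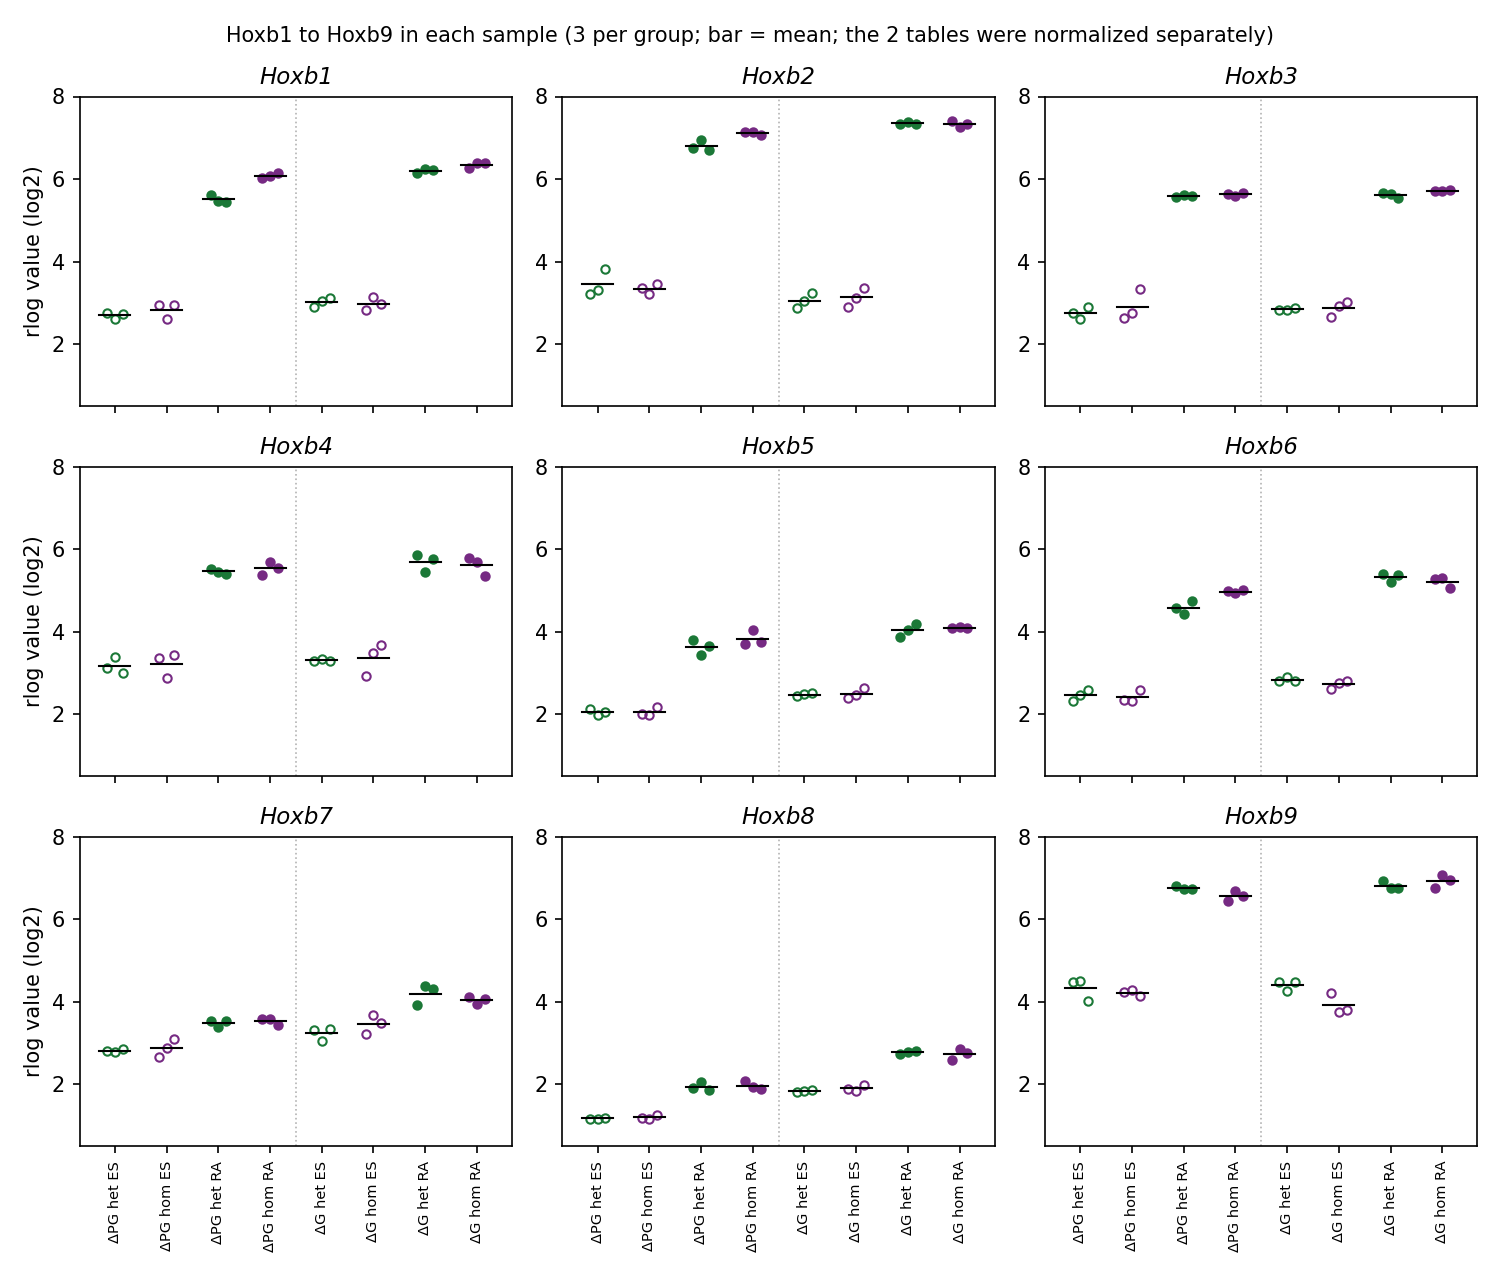
Each panel shows the rlog values (log2 scale) of 1 gene in the 24 samples, with ES samples as open circles, RA samples as filled circles, het in green, hom in purple and the group mean as a bar. In every panel the RA samples lie above the ES samples of the same table, with the smallest gap for Hoxb7 (0.29 in ΔPG and 0.24 in ΔG) and the largest for Hoxb2 (2.87 and 3.90).

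Hoxb1, the gene at the 3′ end, gives the fourth rhombomere of the hindbrain its identity. Its rlog values in ΔPG het cells were 2.76, 2.60 and 2.73 in ES and 5.62, 5.48 and 5.43 in RA, and in ΔPG hom cells 2.94, 2.61 and 2.96 in ES and 6.03, 6.06 and 6.16 in RA. ΔG het cells had 2.91, 3.06 and 3.11 in ES and 6.15, 6.24 and 6.22 in RA, and ΔG hom cells 2.83, 3.14 and 2.98 in ES and 6.27, 6.38 and 6.39 in RA. All ES samples were low and all RA samples high, with no overlap in any of the 4 pairs of groups. The difference RA minus ES was 2.81 (SE 0.105, limma adjusted p = 4.62e-07) in ΔPG het, 3.25 (SE 0.139) in ΔPG hom, 3.18 (SE 0.111) in ΔG het and 3.36 (SE 0.126) in ΔG hom cells.

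Hoxb2, the next gene (chr11:96212946-96217003), is active in the hindbrain, where it acts with Hoxb1 in the development of the facial motor neurons. It had rlog values of 3.21, 3.32 and 3.83 in ES and 6.76, 6.95 and 6.69 in RA in ΔPG het cells, and 3.37, 3.21 and 3.46 in ES and 7.14, 7.13 and 7.07 in RA in ΔPG hom cells. The values in ΔG het cells were 2.88, 3.05 and 3.25 in ES and 7.34, 7.38 and 7.33 in RA, and in ΔG hom cells 2.90, 3.13 and 3.37 in ES and 7.41, 7.27 and 7.33 in RA. In each of these 4 pairs of groups the RA samples were high and closer together than the ES samples. Among the 9 genes Hoxb2 had the largest difference in all 4 comparisons, with 3.35 (SE 0.167), 3.77 (SE 0.109), 4.29 (SE 0.113) and 4.20 (SE 0.129) in ΔPG het, ΔPG hom, ΔG het and ΔG hom cells. Among all genes tested it ranked 60, 29, 36 and 48 by the size of the rise, in the same order. The antisense transcript Hoxb3os overlaps 49.4% of the exonic length of Hoxb2 and 37.9% of that of Hoxb3 on the opposite strand, and reads were counted by strand.

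Hoxb3 and Hoxb4, which are active in the caudal hindbrain, are the next genes (chr11:96184640-96207999 and chr11:96177998-96182952). The Hoxb3 group means in ES were 2.76, 2.92, 2.85 and 2.87 in ΔPG het, ΔPG hom, ΔG het and ΔG hom cells, with SDs from 0.0235 to 0.368, and in RA 5.59, 5.63, 5.62 and 5.72, with SDs from 0.00881 to 0.0668. For Hoxb4 the group means were 3.17, 3.23, 3.31 and 3.37 in ES and 5.46, 5.53, 5.69 and 5.61 in RA. All RA samples of both genes lay above all ES samples. Hoxb3 differed by 2.83 (SE 0.108), 2.71 (SE 0.179), 2.77 (SE 0.111) and 2.86 (SE 0.133). The differences of Hoxb4 were 2.29 (SE 0.121), 2.31 (SE 0.169), 2.38 (SE 0.127) and 2.24 (SE 0.175).

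Hoxb5 and Hoxb6 lie in the middle of the cluster (chr11:96163909-96167434 and chr11:96153790-96162883), and Hoxb5 is known for its part in the neural crest that forms the enteric nervous system. Hoxb5 had group means of 2.06, 2.06, 2.48 and 2.50 in ES and 3.63, 3.84, 4.03 and 4.10 in RA, in the same order of groups. Its differences of 1.58 (SE 0.136), 1.78 (SE 0.164), 1.56 (SE 0.13) and 1.60 (SE 0.134) were smaller than those of both its neighbours. Hoxb6 had group means of 2.46, 2.42, 2.84 and 2.73 in ES and 4.58, 4.97, 5.33 and 5.21 in RA, with differences of 2.12 (SE 0.136), 2.56 (SE 0.148), 2.49 (SE 0.117) and 2.48 (SE 0.133).

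Hoxb7 and Hoxb8 had the smallest differences. Hoxb7 is expressed in the ureteric bud of the kidney, and Hoxb8 in the spinal cord and in myeloid progenitors. The rlog values of Hoxb7 in ΔPG het cells were 2.80, 2.79 and 2.84 in ES and 3.54, 3.38 and 3.54 in RA, and in ΔPG hom cells 2.66, 2.88 and 3.09 in ES and 3.57, 3.58 and 3.43 in RA. They were 3.32, 3.05 and 3.33 in ES and 3.91, 4.37 and 4.30 in RA in ΔG het cells, and 3.21, 3.67 and 3.48 in ES and 4.11, 3.95 and 4.06 in RA in ΔG hom cells. The groups did not overlap, but the highest ES sample and the lowest RA sample of a table were no more than 0.29 apart. Hoxb7 differed by 0.67 (SE 0.113, limma adjusted p = 0.00151), 0.65 (SE 0.166, adjusted p = 0.00705), 0.96 (SE 0.148, adjusted p = 0.0001) and 0.59 (SE 0.145, adjusted p = 0.00237). This is the one rise among the 9 genes that depended on the scaling, since under quantile normalization Hoxb7 differed by 0.28, 0.24 and 0.16 in ΔPG het, ΔPG hom and ΔG hom cells and was no longer called there. Leaving out replicate 1 of the ΔG hom ES samples brought it to 0.47 in ΔG hom cells, below the limit.

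Hoxb8 was the lowest of the 9 genes on the rlog scale, with group means of 1.18, 1.20, 1.84 and 1.90 in ES and 1.94, 1.97, 2.77 and 2.73 in RA. It differed by 0.76 (SE 0.103), 0.77 (SE 0.131), 0.94 (SE 0.121) and 0.83 (SE 0.136). Hoxb7 (chr11:96145571-96151650) and Hoxb8 (chr11:96143219-96146639) share 1069 bp of exon on the same strand, which is 26.2% of the exonic length of Hoxb7 and 40.4% of that of Hoxb8. Reads from this stretch cannot be given to 1 of the 2 genes, so the values of both are uncertain.

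Hoxb9, at the 5′ end of the 9 genes, patterns the thoracic skeleton and spinal cord. In ΔPG het cells its rlog values were 4.47, 4.50 and 4.02 in ES and 6.80, 6.74 and 6.72 in RA, and in ΔPG hom cells 4.23, 4.29 and 4.14 in ES and 6.43, 6.69 and 6.55 in RA. ΔG het cells had 4.48, 4.26 and 4.47 in ES and 6.92, 6.75 and 6.75 in RA, and ΔG hom cells had 4.21, 3.75 and 3.79 in ES and 6.75, 7.08 and 6.95 in RA. Hoxb9 was the highest of the 9 genes in ES, and all its RA samples lay above all its ES samples. It differed by 2.42 (SE 0.131), 2.34 (SE 0.109), 2.40 (SE 0.103) and 3.01 (SE 0.136).

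Along the cluster the size of the rise did not fall steadily from Hoxb1 to Hoxb9. From Hoxb2 to Hoxb5 it went down from gene to gene in all 4 comparisons, Hoxb6 was higher again, Hoxb7 and Hoxb8 formed the low point, and Hoxb9 returned to between 2.34 and 3.01. The rlog transformation shrinks the differences of low genes, and the low differences of Hoxb8 stand beside its low level. Those of Hoxb7 stand beside ES means of 2.81 to 3.45, where Hoxb3 had ES means of 2.76 to 2.92. The part of shrinkage in this profile was not tested.

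**Figure D2:**
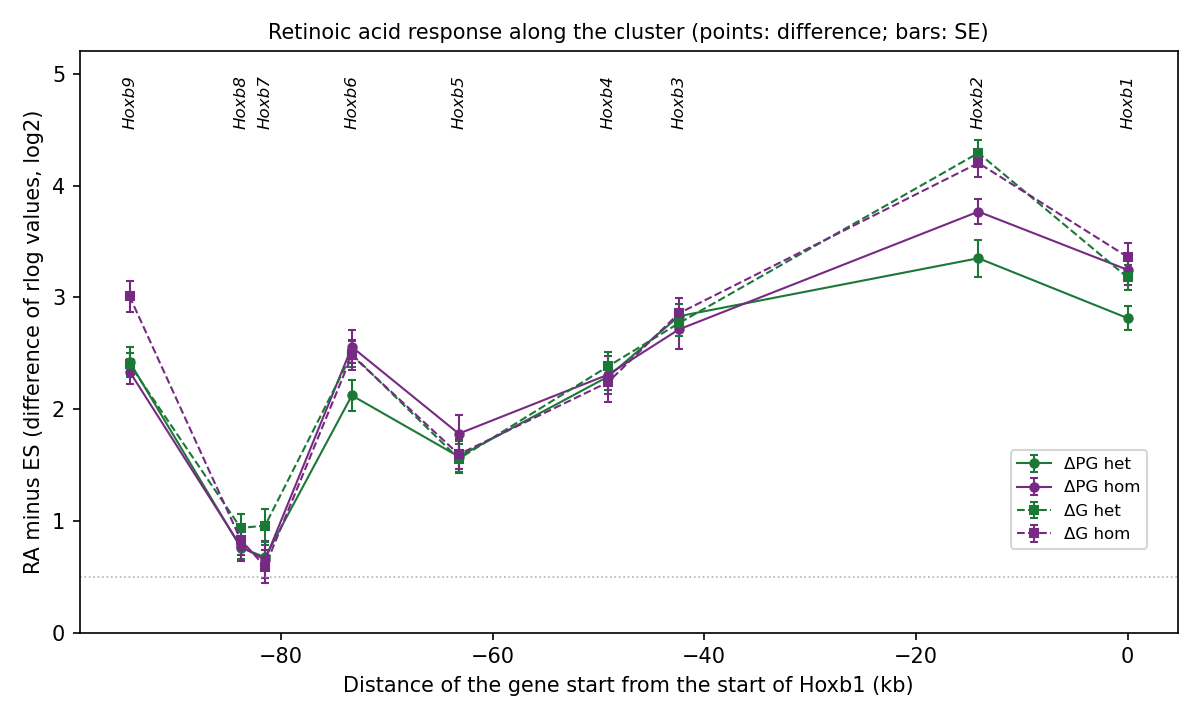
The difference RA minus ES (rlog, log2 scale) of each gene is plotted against the distance of its start from the start of Hoxb1 in kb, with SE bars and 1 line for each of the 4 comparisons. All 4 lines have their peak at Hoxb2 (3.35 to 4.29) and their low point at Hoxb7 and Hoxb8 (0.59 to 0.96), and the dotted line marks the limit of 0.5.

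To compare levels between the genes, the log2 of the unshared exonic length in kb was subtracted from the rlog values. On this scale, level per kb, Hoxb9 was highest in all 4 ES groups, at 2.97 in ΔPG het, 2.86 in ΔPG hom, 3.04 in ΔG het and 2.56 in ΔG hom cells, and its samples did not overlap with those of the next gene. The other 8 genes lay between 0.52 and 1.86 in ES, and most neighbours in the order overlapped. Because rlog values of genes with few reads are pulled towards their mean, the order of the low genes in ES is uncertain. Hoxb8 in ES, for example, stood at 0.52 and 0.54 in ΔPG het and hom cells. In ΔG het and hom cells it stood at 1.18 and 1.25. In RA, Hoxb9 (5.39) was followed by Hoxb2 (5.08) and Hoxb1 (4.30) in ΔPG het cells, and Hoxb2 (5.39) by Hoxb9 (5.19) and Hoxb1 (4.87) in ΔPG hom cells, each without overlap between neighbours. Hoxb2 and Hoxb9 stood at 5.62 and 5.44 in ΔG het cells, and at 5.61 and 5.56 in ΔG hom cells, where their samples overlapped. Hoxb1 came next after these in all 4 RA groups, and Hoxb8 was last, at 1.28, 1.31, 2.12 and 2.08.

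Around these genes, the annotation lists 41 other names within 500 kb of either end, and 36 of these varied among the ΔPG samples and 37 among the ΔG samples. Of those, 5 were called higher and 6 lower in ΔPG het and in ΔPG hom cells, 4 and 4 in ΔG het and 5 and 4 in ΔG hom cells. These counts include small RNA names such as U1 and U3, which the annotation uses at several places in the genome. Of all 21979 genes tested in ΔPG, 3960 were called higher and 2987 lower in het, and 3634 and 2482 in hom cells. Of all 22048 in ΔG, 3911 and 2588 were called in het, and 3759 and 2675 in hom cells. Whether the names near the cluster differ from all genes was not tested. Of these names, the 4 with the largest mean difference were 0610040B09Rik, Hoxb13, Atp5g1 and Hoxb3os. The antisense transcript 0610040B09Rik (named Hoxb5os in RefSeq), which starts between Hoxb4 and Hoxb5 and runs past Hoxb6, rose by 2.48, 2.15, 2.56 and 1.89, and Hoxb3os by 1.15, 1.39, 1.20 and 0.87. Hoxb13, the last gene of the cluster towards the 5′ side (chr11:96055630-96058761) and a marker of the tail end of the body, rose by 1.59, 1.23, 1.31 and 1.97. Atp5g1, a subunit of the mitochondrial ATP synthase, fell in all 4 comparisons (-0.98, -1.16, -1.32 and -1.21).

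**Figure D3:**
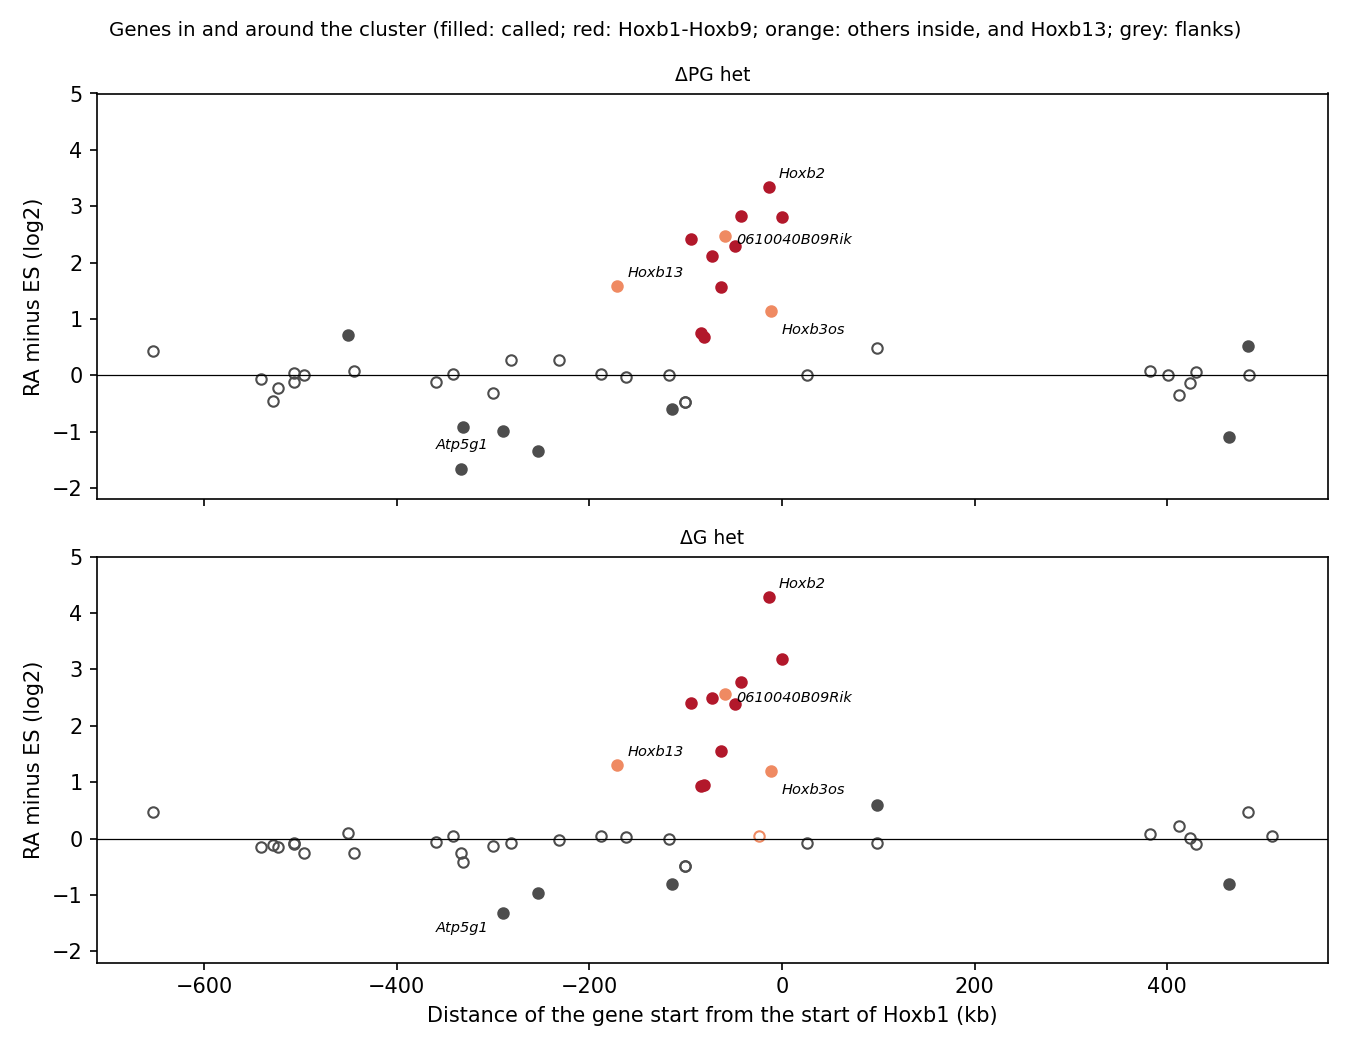
For het cells of each table, the difference RA minus ES (rlog, log2 scale) of every varying gene within 500 kb is plotted against the distance of its start from that of Hoxb1 in kb, filled where called. Hoxb1 to Hoxb9 (red), Hoxb13, 0610040B09Rik and Hoxb3os (orange) stand between 0.67 and 4.29, and the flanking genes (grey) lie around 0 or below in all but a few cases.

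The other 29 Hox genes belong to the Hoxa, Hoxc and Hoxd clusters. In the order ΔPG het, ΔPG hom, ΔG het and ΔG hom, 17, 17, 16 and 14 of 29 were called higher and 2, 1, 1 and 2 lower, and their median differences were 0.65, 0.59, 0.67 and 0.48. Hoxa5 (3.10, 3.02, 2.74 and 3.21), Hoxc8 (2.37, 2.06, 2.00 and 1.78) and Hoxc9 (1.91, 1.75, 1.84 and 1.94) were among those with the largest mean differences. Hoxc12 was called lower in all 4 comparisons, and Hoxc13 in ΔPG het and ΔG hom cells, both named after their values were seen. Whether the Hoxb genes differ from the other clusters was not tested.

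The TALE homeodomain proteins of the Pbx, Meis and Pknox families bind DNA together with Hox proteins. Of 9 such genes, 8 were called higher in both ΔPG comparisons and 7 in both ΔG comparisons, and none lower. Meis1 (3.95, 3.99, 4.74 and 4.88), Meis2 (2.62, 2.52, 2.72 and 2.01) and Meis3 (1.23, 1.43, 1.75 and 1.55) were among those with the largest mean differences.

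Of 15 genes of the retinoid pathway, 11, 11, 14 and 13 were called higher and 1 lower in each comparison. The lower one, named after its values were seen, was the receptor gene Rarg (-1.72, -1.22, -1.68 and -1.56). The retinoic acid hydroxylases Cyp26a1 (4.60, 4.57, 5.88 and 5.54) and Cyp26b1 (4.74, 4.19, 4.96 and 5.32), which degrade retinoic acid, the binding protein Crabp2 (3.70, 4.04, 5.25 and 4.72) and the retinol transporter Stra6 (3.71, 3.86, 4.42 and 4.61) had the largest mean differences. Of 12 factors and enzymes known to act upstream of Hoxb genes, 4 were called higher in each comparison and 3, 1, 1 and 1 lower. Wnt3a (-0.62) and Gbx2 (-0.64), named after their values were seen, were called lower in ΔPG het cells. Cdx1, itself a homeobox gene that activates Hox genes, fell (-3.55, -2.61, -3.46 and -2.90), whereas the signalling factor Gdf11 (1.56, 2.11, 2.50 and 2.05) rose.

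Markers of cell types moved with the same comparisons, and their part in the Hoxb differences was not tested. All 9 pluripotency markers in the tables fell in all 4 comparisons, with Nanog at -4.25, -4.40, -4.61 and -4.48, and their mean rlog value per sample went from between 10.3 and 10.6 in ES to between 6.57 and 6.81 in RA. All 10 markers of endoderm and extraembryonic endoderm rose in each, from sample means between 3.60 and 4.10 to between 6.37 and 7.29. Of the 8 or 9 neural markers tested, 3 rose (Pax6, Nes and Zic1) and 1 fell (Tubb3) in each comparison, with Pax6 at 2.60, 2.48, 2.86 and 2.31, and sample means were between 1.43 and 1.90 in ES and between 1.91 and 2.39 in RA. Of the 7 or 8 mesoderm markers tested, 3 rose (Meox1, Kdr and Hand1) and 2, 2, 2 and 1 fell (T in all 4 and Eomes in 3), with sample means between 1.97 and 2.32 in ES and between 2.62 and 3.18 in RA. Of 5 fibroblast markers, 4, 4, 4 and 3 rose and 1, 1, 0 and 0 fell (Thy1), with Col1a2 at 4.09, 4.30, 5.43 and 4.20. Neurog1, 1 of 9 neural markers, was listed at 0 in all ΔPG samples, and Mesp1, 1 of 8 mesoderm markers, in all ΔG samples.

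The second question was whether cells without an intact allele of 5430416N02Rik differ from het cells in their Hoxb levels. The comparisons by genotype use the same samples as the RA comparisons. In ES, none of the 9 genes was called by limma in either design, where 13.2% of all genes were called in ΔPG and 0.984% in ΔG. At an unadjusted p under 0.05 there were 0 of 9 in ΔPG and 1 of 9 in ΔG, Hoxb9. The share of all genes at that unadjusted limit was not counted, here or in the later comparisons. In ΔPG, 0 of 9 genes had groups without overlap, beside 39.6% of all genes. The differences hom minus het ran from -0.11 (Hoxb9) to 0.16 (Hoxb3) in ΔPG. The 95% interval of Hoxb3 reached from -0.30 to 0.62, so a difference past the limit of 0.5 lies within it. In both designs, all genes but Hoxb9 had low group means in ES (1.18 to 3.45), where rlog values shrink differences. These ΔPG values changed with 1 alternative, in which each sample’s trend with the GC content of genes was removed. Hoxb3 then differed by 0.59 (limma adjusted p = 0.00531) and was called, and Hoxb1 differed by 0.39 (adjusted p = 0.0439, under the limit of 0.5). The median of the 7 genes then tested was 0.27, against 0.02 for the 9 genes before. These medians are over different sets, as Hoxb5 (0.0003 before) and Hoxb8 (0.02 before) were no longer tested. The count over all genes moved too, from 2893 of 21979 to 865 of 11904, and the share of 13.2% therefore changed with this alternative as well. The share without overlap was not counted in that setting. In ΔG cells Hoxb9 was lower in all 3 hom samples (4.21, 3.75 and 3.79) than in all 3 het samples (4.48, 4.26 and 4.47), by -0.48 (SE 0.144, limma adjusted p = 0.156), and was not called. Over 15 alternatives the difference ran from -0.63 to -0.40 and the adjusted p from 0.0168 (all 12 samples in 1 fit) to 0.349. In 14 of these it was not called either. Hoxb9 was the 1 gene of 9 whose groups did not overlap in ΔG, beside 17.8% of all genes.

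In RA, Hoxb1 was the 1 gene of 9 that was called in ΔPG cells, beside 0.241% of all genes called higher there and 0.846% called either way. The 3 hom samples (6.03, 6.06 and 6.16) lay above the 3 het samples (5.62, 5.48 and 5.43), by 0.57 (SE 0.0875, 95% interval 0.37 to 0.77, limma adjusted p = 0.00628). Over 15 alternatives the difference stayed between 0.53 and 0.63 with adjusted p from 0.000766 to 0.0731, and it was not called where a fold change over 1.5 was asked. Hoxb2 (0.31, SE 0.0744, adjusted p = 0.0568), Hoxb6 (0.39, SE 0.118, adjusted p = 0.136) and Hoxb9 (-0.20, SE 0.078, adjusted p = 0.274) had groups without overlap too, but were not called. With Hoxb1 these were 4 of 9 genes without overlap, beside 18.8% of all genes. The same 4 of 9 genes had an unadjusted limma p under 0.05. The other 5 genes differed by 0.03 to 0.21.

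The endoderm markers moved with genotype in these same samples, and their part in the Hoxb1 result was not tested. In ΔPG RA cells 6 of 10 were called lower in hom than in het cells and none higher, among them Col4a1 (-0.92) and Gata4 (-0.80), and the mean rlog value over the 10 was between 6.98 and 7.03 in het and between 6.37 and 6.53 in hom samples. Already in ΔPG ES cells 2 of the 10 were called lower in hom cells and none higher. The ES means in het and hom cells were 7.28 and 6.54 for Col4a1, and 3.39 and 3.33 for Gata4. For the interaction in ΔPG, 2 of the 10 were called lower and none higher. None of the 10 was at 0 throughout. The pluripotency marker Klf4 (-0.61, 1 of 9) and the fibroblast marker Col3a1 (-0.67, 1 of 5) were called lower too. The neural markers had sample means between 2.37 and 2.39 in het and between 2.27 and 2.35 in hom samples. In ΔG RA cells 3 of 10 endoderm markers were called lower, with sample means between 7.24 and 7.29 in het and between 6.95 and 6.99 in hom samples. Of the other lists in ΔG RA cells, the mesoderm markers Hand1 (0.81) and Kdr (0.57) and the neural marker Tubb3 (0.99) were called higher in hom cells, and the fibroblast marker Col1a2 lower (-1.42). The sample means of the mesoderm list were between 2.91 and 2.98 in het and between 3.13 and 3.18 in hom samples.

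None of the 9 Hoxb genes was called by limma in ΔG RA cells, where 2.14% of all genes were, and 0 of 9 had an unadjusted p under 0.05. Hoxb1 (6.15, 6.24 and 6.22 in het and 6.27, 6.38 and 6.39 in hom samples) and Hoxb3 had groups without overlap, beside 21.8% of all genes, with differences of 0.14 (SE 0.094) and 0.11 (SE 0.104). The 95% interval of the Hoxb1 difference was -0.06 to 0.34. Whether the designs differ was not tested, since their tables were normalized separately.

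Of the transcripts beside the 9 genes, Hoxb13 was lower in hom than in het ΔPG cells in RA (6.05, 6.24 and 5.98 against 6.57, 6.80 and 6.82), by -0.64 (SE 0.0959, adjusted p = 0.00549). It was therefore called in the direction opposite to Hoxb1 in the same 6 samples. In ΔPG ES cells Hoxb13 differed by -0.28 (SE 0.105, limma adjusted p = 0.0842), under the limit of 0.5. Its interaction in ΔPG was not called (-0.36, SE 0.146, limma adjusted p = 0.0971), so a difference between ES and RA is not shown by these limits. In ΔG cells in RA, Hoxb13 was higher in hom samples by 0.45 (SE 0.101, adjusted p = 0.00742), under the limit of 0.5. The antisense transcript 0610040B09Rik was lower there in hom samples (4.63, 4.36 and 4.74) than in het samples (5.26, 5.27 and 5.17), by -0.66 (SE 0.127, adjusted p = 0.00198).

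**Figure D4:**
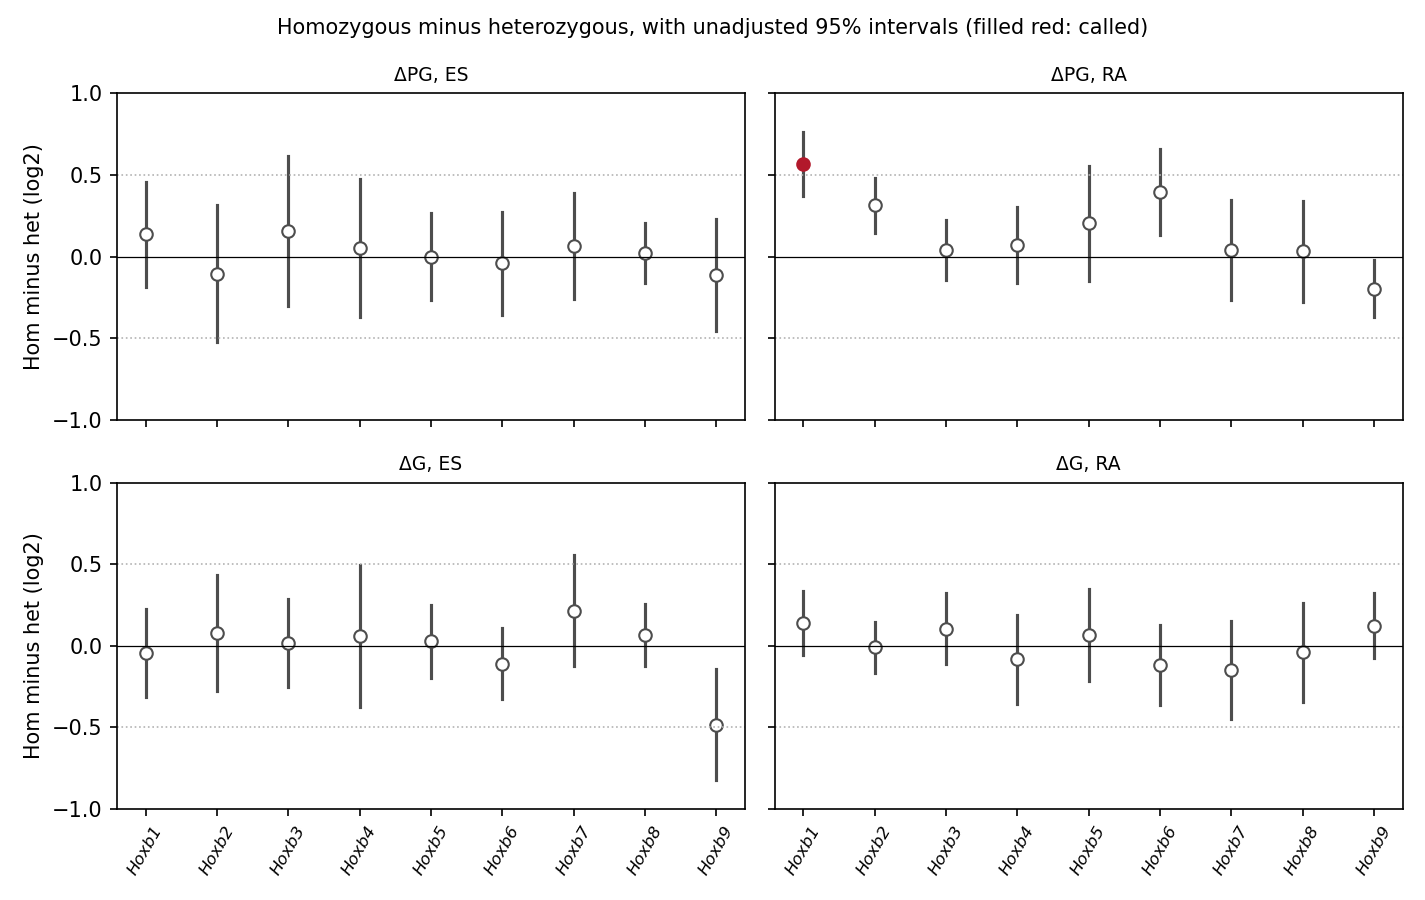
The difference hom minus het (rlog, log2 scale) of the 9 genes is plotted for ES and RA in each design, with unadjusted 95% intervals from limma and dotted lines at 0.5 and -0.5. Hoxb1 in ΔPG RA cells (0.57, filled) is the one point past a dotted line that was called, and Hoxb9 in ΔG ES cells (-0.48) is the lowest point.

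The difference between the RA response of hom and het cells was tested as an interaction term, in a fit of all 12 samples of each design. In ΔPG, where 13.9% of all genes were called, limma called none of the 9 genes, and 2 of 9 had an unadjusted p under 0.05. These were Hoxb1, with a response larger by 0.43 in hom cells (SE 0.17, adjusted p = 0.0859), and Hoxb6, also by 0.43 (SE 0.19, adjusted p = 0.126). Both lay below the limit of 0.5. With the GC trend removed, the count over all genes went from 3056 to 1122. In that setting the difference was 0.19 for Hoxb1 (limma adjusted p = 0.518) and 0.13 for Hoxb6 (adjusted p = 0.684), while Hoxb3 was called, at -0.55 (adjusted p = 0.0622). The call of Hoxb1 in RA and its absence in ES are therefore not shown to differ by these limits.

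In ΔG, Hoxb9 was the 1 gene of 9 called, beside 1.19% of all genes called higher and 2.38% called either way. Its response was 2.40 in het and 3.01 in hom cells, a difference of 0.61 (SE 0.175, 95% interval 0.25 to 0.97, adjusted p = 0.0507). It rested on lower values in the hom ES samples together with RA values that overlapped (6.92, 6.75 and 6.75 in het and 6.75, 7.08 and 6.95 in hom). This call was kept in 9 of 20 alternatives, with adjusted p from 0.0116 to 0.142 and differences from 0.53 to 0.75. It was lost when any of these libraries was left out: het ES replicate 1 (0.57) or 3 (0.57), hom ES replicate 2 (0.53) or 3 (0.54), het RA replicate 2 (0.58) or 3 (0.58), and hom RA replicate 2 (0.53) or 3 (0.59). Markers of cell types moved in the same test, and their part in the Hoxb9 result was not tested. The mesoderm markers Hand1 (0.82) and Eomes (0.60), 2 of 7 tested, and the neural marker Tubb3 (0.60), 1 of 9, were called higher, and the endoderm marker Dab2 (-0.95), 1 of 10, and the fibroblast marker Col1a2 (-1.22), 1 of 5, lower. Hoxb7 went the other way in ΔG (-0.37, SE 0.209, adjusted p = 0.445) and did not pass the test.

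Within each table the 9 genes varied together. The Pearson correlation of a gene with the mean of the other 8, over the 12 samples of a table, was lowest for Hoxb7 (0.961 in ΔPG and 0.905 in ΔG) and at least 0.973 for each of the other genes. Since the samples form an ES and an RA group, these values mostly hold that 1 difference, and they are given without a test. Among 11759 other genes whose mean reached 3 in both designs, the pattern most like the mean of the 9 was that of Arg1 (0.998, the smaller of its correlations in ΔPG and ΔG), an enzyme of the urea cycle, followed by the imprinted gene Mest (0.997), Stra6 (0.997), the guanylate-binding protein gene Gbp2 (0.996) and the Wnt receptor gene Fzd2 (0.996).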

How the data were processed

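RNA-seq libraries (stranded, ribosomal RNA depleted, paired reads) of 24 samples were used. The authors aligned reads to NCBIM37 with TopHat2 2.1.0, removed duplicates with Picard, counted per gene name and strand with HTSeq 0.6.0, and deposited DESeq2 1.14.1 size-normalized, regularized log values on the log2 scale, 1 table per design. The regions of 2 4C-seq replicates, which the authors deposited as start and end with no value (unit other), were compared with the cluster by position. The RA dose and time come from the study's supplementary text.

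Groups were taken from the sample labels. With limma 3.58.1 (R 4.3.3, eBayes with trend), every gene that varied in a table was fitted, over the 6 samples of a comparison or the 12 of a table for interactions. Genes were called where the p-value, adjusted after Benjamini and Hochberg, was under 0.1 and the difference exceeded 0.5 in either direction. The fit was tested on simulated data. The members and gene lists were chosen with earlier results of these data known. All 9 members and Hoxb13 were named, and of other lists up to 4 genes with the largest mean RA difference. Some genes that this rule names are not reported here. Genes near the cluster were taken within 500 kb. Figures were drawn with matplotlib 3.10.9. Alternatives were stricter or looser limits, a minimum mean of 3, quantile or median scaling, removal of a GC trend, no variance trend, a replicate block, all 12 samples in 1 fit, and leaving out each sample.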

Additional observations from a re-analysis of the deposited data

Results flagged for a closer look

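In ΔG cells, the RA response of hom and het cells was compared for the 9 members and the 37 varying names within 500 kb. Of these, 3 were called in the limma test of the difference itself, beside 2.38% of all genes called either way. Hoxb9 rose by 0.61 more in hom cells (SE 0.175, adjusted p = 0.0507), and the call was kept in 9 of 20 alternatives. Hoxb13 rose by 0.66 more in hom cells (SE 0.192, adjusted p = 0.0541), with a response of 1.31 in het and 1.97 in hom cells. Its call was kept in 10 of 20 alternatives, over which the difference ran from 0.49 to 0.84 and the adjusted p from 0.00766 to 0.189. The antisense transcript 0610040B09Rik rose less in hom cells, with a difference of -0.68 (SE 0.19, adjusted p = 0.044) between responses of 2.56 in het and 1.89 in hom cells. This call was kept in 17 of 20 alternatives, with adjusted p from 0.00973 to 0.121, and was lost without het ES replicate 1, without hom ES replicate 3 and without hom RA replicate 2. The 3 differences come from the same 12 samples.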

How the results depend on the processing

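Of 528 member values of the RA comparisons under alternatives, 524 kept their call and direction, and the 4 others were the Hoxb7 values given above. Of 882 values by genotype and interaction, 861 did, and none reversed. Numbers of members called moved as follows. With the GC trend removed, 1 gene was called by genotype in ΔPG ES (Hoxb3, 0.59) and 1 for the interaction in ΔPG (Hoxb3, -0.55), among the 7 members that reached a mean of 3. With limits of 0.05 on the adjusted p and 1.5 on the fold change, 0 were called by genotype in ΔPG RA and 0 for the interaction in ΔG. Without a limit on the difference, the counts were 2 and, for the interaction in ΔPG, 1. Under quantile normalization and without a variance trend, 0 were called for the interaction in ΔG. Leaving out 1 sample gave 0 to 1 genes by genotype in ΔG ES (without hom replicate 1, Hoxb9 at -0.63, adjusted p = 0.0811), 0 to 2 for the interaction in ΔPG (without het ES replicate 1, Hoxb2 at 0.54 and Hoxb6 at 0.51, and without hom ES replicate 3 or het RA replicate 3, Hoxb6 at 0.52), and 0 to 1 for the interaction in ΔG. The cause of these shifts was not tested.

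Same-numbered samples had correlations of their deviations between -0.033 and 0.0855, so no strong shared deviation by number was seen. Whether samples of the same number were handled together is not known. With the replicate block the members called were as many as without it in all 10 comparisons (9 in each RA comparison, 1 by genotype in ΔPG RA, 1 for the interaction in ΔG and 0 in the others), while the count over all genes went from 186 to 112 in ΔPG RA and from 217 to 44 in ΔG ES. Other counts over all genes that moved by over 1.5 times were, without a limit on the difference, 12607, 11424, 12012 and 11772 for RA (from 6947, 6116, 6499 and 6434), 7926, 1006, 1152 and 2433 by genotype in ΔPG ES, ΔPG RA, ΔG ES and ΔG RA (from 2893, 186, 217 and 471), and 6387 and 1164 for the interactions (from 3056 and 524). With the GC trend removed they were 865 in ΔPG ES and 1122 for the interaction in ΔPG, and under the stricter limits 117 in ΔG ES, 275 in ΔG RA and 268 for the interaction in ΔG. The split of calls into higher and lower moved by over 10 percentage points under quantile normalization, with 2864 and 2960 in ΔPG hom RA (from 3634 and 2482), 3042 and 3304 in ΔG het RA (from 3911 and 2588), 2941 and 3305 in ΔG hom RA (from 3759 and 2675) and 69 and 76 in ΔG ES (from 78 and 139), and without a limit on the difference, with 519 and 487 in ΔPG RA (from 53 and 133) and 1070 and 1363 in ΔG RA (from 149 and 322). Depth is unknown, and shrinkage limits what can be seen for Hoxb8 and Hoxb5. In ES, where all members but Hoxb9 had group means between 1.18 and 3.45, it also limits what can be seen for the others.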

Other observations

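Contacts of the 5430416N02Rik locus were measured by 4C-seq in 2 replicates. Their labels name neither a deletion design nor a treatment, and the paper describes this experiment before it introduces the deletion lines. These contacts are therefore not known to be those of the RNA groups above. Neither replicate listed a region that overlaps the Hoxb genes, with 13 and 9 regions on chromosome 11. The nearest region lay 6835 kb away in the first and 3759 kb in the second replicate with the cluster placed on NCBIM37, and 6974 and 3620 kb with it placed on GRCm38. The paper states that its 4C reads were aligned to mm9, which is NCBIM37. The GRCm38 distances would hold only if the deposited regions were placed on that build. The lists hold only regions called significant, so weaker contacts were not detectable in them.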
